A study of Mus musculus with 6 samples.

Results

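Transcripts of the major histocompatibility complex (MHC) were examined in sorted LYVE-1+ tumor-associated macrophages (TAMs), with the genes that load class I and the genes that load class II set side by side. The members were the 10 rows of the counts table named for this purpose, of 21841 genes in all. They comprised 4 class I genes (B2m, H2-D1, H2-K1 and H2-T23) and 6 class II genes (Cd74, H2-Aa, H2-Ab1, H2-Eb1, H2-DMa and H2-DMb1). Each library came from 5000 live CD45+F4/80+CD206+LYVE-1+ cells of the mammary tumor of 1 mouse, after 36 h of vehicle in 3 mice and 36 h of KCL-HO-1i at 25 µmol/kg/day by intraperitoneal injection in 3 mice. All 6 mice were FVB/N-Tg(MMTV-PyVT)634Mul/J with the genotype given as WT. The mammary tumor virus promoter drives the polyoma middle T oncogene in the mammary epithelium of this strain, so the vehicle mice carried the oncogene and tumors as well. KCL-HO-1i is a tin mesoporphyrin in a phosphate salt form that inhibits heme oxygenase-1 (HO-1, the product of Hmox1). No age was given. The question of the comparison was how the presentation genes of these TAMs differed after acute HO-1 inhibition.

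MHC class I molecules are carried by nearly all nucleated cells and show peptides from inside the cell to CD8+ T-cells. Each consists of a heavy chain, encoded in the mouse by H2-K1, H2-D1 and related genes, and the light chain beta-2 microglobulin, encoded by B2m. MHC class II molecules are made mainly by professional antigen-presenting cells and show peptides from ingested material to CD4+ T-cells. Their chains are held by the invariant chain Cd74 until cathepsins cut it and the H2-DM chaperone exchanges its remnant for a peptide. Both classes are raised by interferon gamma, class I through the transactivator Nlrc5 and class II through Ciita. The TAMs sorted here are described by the study as low in surface MHC class II.

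The promoters of 4 members are shown with short motifs known from MHC genes, because they stand for the light chain, a heavy chain and both chain types of class II. A promoter was found for 8 of the 10 members in the RefSeq table (GRCm38.p6), which left out Cd74 and H2-Ab1. Each sequence is the 250 bases before the RefSeq start, read 5′ to 3′ along the gene's strand. Capitals mark matches, on either strand, to ATTGG (the Y box core), AACNGATG (the X box), GGGATTCC (a kappa B site) and TTTCANTTC (an interferon response element).
B2m promoter, chr2:122147437-122147686, plus strand: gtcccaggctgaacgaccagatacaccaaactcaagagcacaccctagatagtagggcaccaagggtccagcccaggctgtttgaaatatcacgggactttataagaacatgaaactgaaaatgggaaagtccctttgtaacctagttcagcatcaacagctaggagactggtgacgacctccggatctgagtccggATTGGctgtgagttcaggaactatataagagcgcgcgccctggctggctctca
H2-K1 promoter, chr17:34000348-34000597, minus strand: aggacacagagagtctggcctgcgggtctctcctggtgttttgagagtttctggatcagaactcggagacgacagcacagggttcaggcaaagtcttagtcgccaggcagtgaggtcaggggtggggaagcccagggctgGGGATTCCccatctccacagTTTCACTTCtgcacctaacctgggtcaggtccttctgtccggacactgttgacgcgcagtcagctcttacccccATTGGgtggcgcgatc
H2-Aa promoter, chr17:34287824-34288073, minus strand: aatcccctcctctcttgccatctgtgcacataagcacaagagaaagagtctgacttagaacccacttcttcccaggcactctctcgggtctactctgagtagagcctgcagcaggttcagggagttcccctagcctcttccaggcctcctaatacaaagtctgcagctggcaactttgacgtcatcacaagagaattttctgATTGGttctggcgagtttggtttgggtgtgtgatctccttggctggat
H2-Eb1 promoter, chr17:34305617-34305866, plus strand: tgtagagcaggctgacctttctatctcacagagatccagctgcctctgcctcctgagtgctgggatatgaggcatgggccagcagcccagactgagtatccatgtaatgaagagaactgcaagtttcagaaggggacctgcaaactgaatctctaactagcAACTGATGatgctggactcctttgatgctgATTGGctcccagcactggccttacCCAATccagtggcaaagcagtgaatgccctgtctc
ATTGG or its complement CCAAT occurred in a promoter of all 8 members that had one, at 53 bases before the start in B2m, 48 in H2-Aa and 59 in H2-Eb1, and in 33.8% of 32851 mouse promoters of the same length. The kappa B and interferon letters stood together before H2-K1, at 110 and 90 bases, and before H2-D1, at 170 and 150 bases. They occurred in 0.889% and 1.50% of all promoters. The X box letters occurred in H2-Eb1 (89 bases before the start) and H2-DMb1 (92 bases), and in 1.98% of all promoters. H2-K1 and H2-DMa have more than 1 RefSeq start, and ATTGG was found at only 1 of the starts of H2-DMa. The sequences are those of the reference strain, not of the FVB/N mice. No binding was measured here, and a match is a match of letters only.

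The libraries were shallow. Vehicle replicates 1, 2 and 3 had totals of 206728, 215647 and 338255 estimated counts, and the KCL-HO-1i replicates had 207812, 319737 and 535224. The 10 MHC genes held 123, 32 and 52 of these counts in the vehicle libraries against 334, 709 and 830 in the KCL-HO-1i libraries. Vehicle replicate 1 stood apart from the other vehicle libraries, with 0.124% of its counts on 15 general macrophage genes against 0.0468% and 0.0452%. The KCL-HO-1i libraries had 0.357%, 0.530% and 0.326% on the same genes, above all 3 vehicle libraries. Genes of cytosolic ribosomal proteins, which every cell uses, likewise took 0.977%, 0.204% and 0.216% of the vehicle counts and a higher 2.10%, 2.41% and 1.55% of the KCL-HO-1i counts. KCL-HO-1i replicate 3 had 41.8% of its counts on mitochondrial genes, and KCL-HO-1i replicate 1 had counts on only 7584 genes, against 10781 to 17318 elsewhere. Genes of 1478 olfactory and vomeronasal receptors, which macrophages are not known to use, took 6.39%, 5.98% and 6.40% of the vehicle counts and 4.18%, 3.25% and 2.20% of the KCL-HO-1i counts. The group with the higher share of MHC counts thus had the higher macrophage and ribosomal shares and the lower receptor share, and the part of library make-up in the MHC differences was not tested. In bulk samples such as these, fewer cells of a type and less RNA per cell cannot be told apart. The codes given to the vehicle mice begin in a way that no KCL-HO-1i code does, so a batch along these codes and the treatment cannot be told apart.

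**Figure D1:**
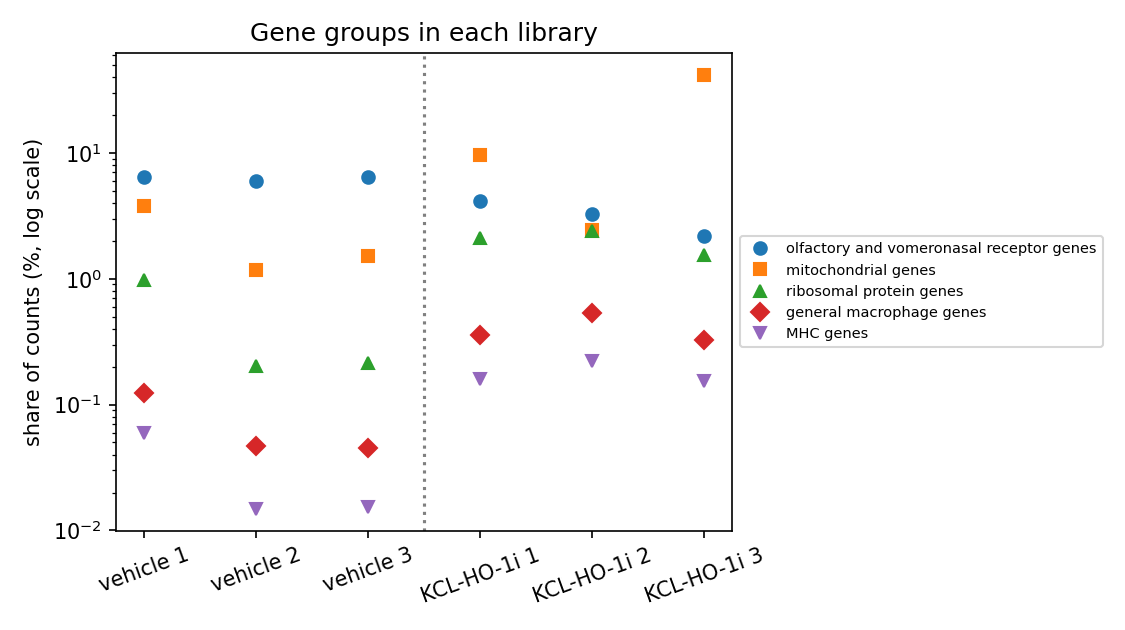
Share of the estimated counts (percent, log scale) on 5 gene groups in each of the 6 libraries, 1 point per group and library. The MHC genes, the general macrophage genes and the ribosomal protein genes are higher in all 3 KCL-HO-1i libraries than in the vehicle libraries, the receptor genes are lower in all 3, and the mitochondrial genes reach 41.8% in KCL-HO-1i replicate 3.

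The sort markers gave a mixed picture of the label. Adgre1, which encodes F4/80, had 3, 3 and 1 counts in the vehicle libraries against 26, 44 and 72 in the KCL-HO-1i libraries. Mrc1, which encodes CD206, had 12, 0 and 3 against 31, 31 and 104. Lyve1 had 22, 8 and 12 against 8, 38 and 36, with overlapping groups. Ptprc, which encodes CD45, was at 0 in vehicle replicate 3 and KCL-HO-1i replicate 1. The general macrophage marker Cd68 was at 0 in KCL-HO-1i replicate 1 as well. The macrophage gene with the most counts was Lyz2, with 115, 9 and 33 counts in the vehicle libraries against 330, 814 and 781 in the KCL-HO-1i libraries. Of the 15 general macrophage genes 9 were tested, with 7 higher and 2 lower with KCL-HO-1i, where 32.6% of all genes tested were higher. Of these 7, Adgre1, Tyrobp, Cd14, Laptm5 and Csf1r had enough counts for testing only with the KCL-HO-1i libraries. This count therefore describes the tested genes and is no support for the list. The 2 lower were Cx3cr1 (10, 23 and 14 against 0, 27 and 0 counts) and Cd68 (8, 9 and 8 against 0, 14 and 4 counts), both with overlapping groups. The macrophage label therefore rests on few counts in the vehicle libraries. Hmox1 had 3, 0 and 11 counts against 148, 316 and 293.

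The class I genes carried most of the MHC counts with KCL-HO-1i. B2m had 14, 0 and 0 counts across vehicle replicates 1, 2 and 3, against 159, 232 and 264 with KCL-HO-1i, and H2-D1 was higher in all 3 KCL-HO-1i libraries as well. In CPM (counts scaled to library size, with TMM over the genes tested), the vehicle mean of B2m was 26.1 ± 45.2 (SD, n = 3) and the KCL-HO-1i mean was 869 ± 118 (SD, n = 3). Among the class II genes, H2-Aa alone had groups that did not overlap, at 2, 0 and 0 against 4, 14 and 11 counts. Among all genes tested, which H2-Aa was not, 7.88% were higher without overlap. Of the 10 members 5 passed the filter on low counts (B2m, H2-D1, H2-K1, H2-Ab1 and H2-DMa), and 0 of these 5 passed an adjusted p-value of 0.05 in edgeR's quasi-likelihood test, where 0 of the 7263 genes tested (0%) passed in the whole table and 586 had an unadjusted p under 0.05.

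**Figure D2:**
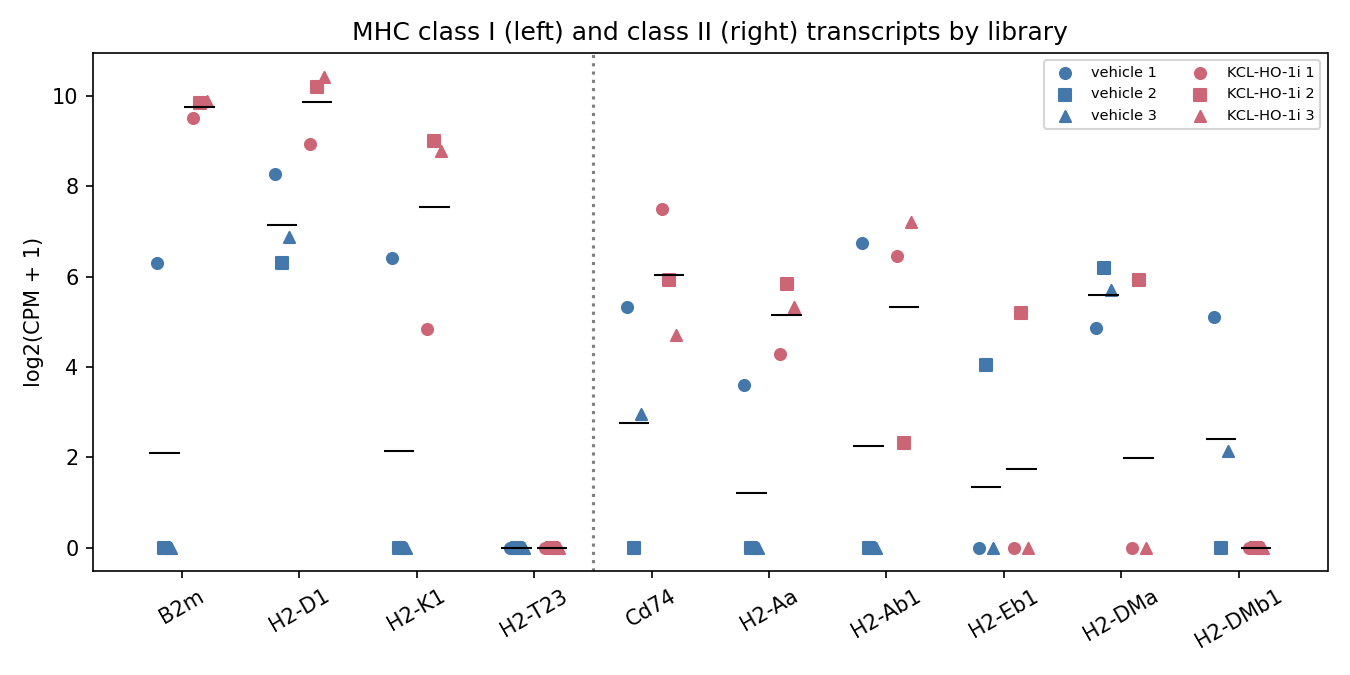
Level of each MHC gene in each library as log2(CPM + 1), with circles, squares and triangles for replicates 1, 2 and 3, blue for vehicle, red for KCL-HO-1i and black lines for group means of the log values. All KCL-HO-1i points lie above all vehicle points for B2m, H2-D1 and H2-Aa, whereas the groups overlap for H2-K1 and the other class II genes, and H2-T23 is at 0 throughout.

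B2m lies on chromosome 2 (GRCm38, 122147686 to 122153083, plus strand). Its CPM were 78.2, 0 and 0 in the vehicle libraries against 733, 927 and 947 in the KCL-HO-1i libraries. The vehicle signal came from replicate 1 alone, and the lowest KCL-HO-1i library was far above it. The log2 fold change was 5.09 (SE 1.46, unadjusted p = 0.00511, adjusted p = 0.307 by edgeR with Benjamini-Hochberg adjustment), and the two-sided exact permutation test on CPM gave p = 0.1, the smallest that 3 mice against 3 allow. Without vehicle replicate 1 both vehicle libraries were at 0. Against the floor of 3 counts in a library (15.5 CPM), the KCL-HO-1i mean was 56.0-fold higher. The lowest KCL-HO-1i library was 47.25-fold above that floor. The floor covers counting error only, and replicate libraries differed by more than that, so these values are not lower bounds. DESeq2 gave B2m a log2 fold change of 5.18 (adjusted p = 0.0121). B2m shares no 31-base stretch with another principal transcript, so its reads are not divided with a paralog. The principal transcript of B2m is short, at 860 bases, and the 258 tested genes with transcripts under 1000 bases had a median log2 fold change of 2.43, against -0.54 for 6967 longer ones. The part of transcript length in the B2m difference was not tested.

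H2-D1, a classical heavy chain gene on chromosome 17 (GRCm38, 35262730 to 35267499, plus strand), was the only member with counts in every library. It had 55, 15 and 34 counts with vehicle against 107, 295 and 385 with KCL-HO-1i. These are 307, 77.5 and 116 CPM against 493, 1179 and 1382 CPM. Vehicle replicate 1 again had the highest vehicle level, below the lowest KCL-HO-1i library. Means were 167 ± 123 CPM (SD, n = 3) and 1018 ± 466 CPM (SD, n = 3), with a log2 fold change of 2.61 (SE 0.87, unadjusted p = 0.0117, adjusted p = 0.364 by edgeR; exact permutation p = 0.1). When only genes with at least 10 counts in every library were tested, H2-D1 passed (log2 fold change 2.71, edgeR adjusted p = 0.00136), as did 7.07% of the 948 genes tested there. Scaled to the general macrophage genes its direction turned (log2 fold change -0.12, edgeR adjusted p = 0.921).

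H2-K1, the other classical heavy chain measured, lies on the same chromosome (GRCm38, 33996017 to 34000347, minus strand). It had 15, 0 and 0 counts with vehicle against 6, 128 and 122 with KCL-HO-1i, or 83.8, 0 and 0 CPM against 27.7, 511 and 438 CPM. KCL-HO-1i replicate 1 lay below vehicle replicate 1, so the groups overlapped. The log2 fold change was 3.58 (SE 1.59, unadjusted p = 0.0459, adjusted p = 0.604 by edgeR; exact permutation p = 0.2). Without vehicle replicate 1 both vehicle libraries were at 0. The KCL-HO-1i mean was 21-fold above the same floor as for B2m, again not a lower bound, and KCL-HO-1i replicate 1 had only 6 counts. H2-K1 shares 23.3% of its 31-base stretches with other genes, and H2-D1 27.5%, with each other the most. Salmon divides such reads by a model, so the split between both heavy chains is uncertain, and the FVB/N strain carries other alleles of both than the reference.

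H2-T23 encodes the nonclassical heavy chain Qa-1, which presents leader peptides of other class I chains to NK cells and T-cells (chromosome 17, GRCm38, 36029773 to 36032855, minus strand). It was listed at 0 in all 6 libraries. By counting error alone, a count of 0 allows up to 3 counts, which is 10.2 to 16.8 CPM across the libraries. In all, 48.4% of its 31-base stretches occur in other genes, and 10.6% of all genes in the table were at 0 in every library, so the value is not read as absence of the transcript.

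All 3 tested class I members were higher with KCL-HO-1i at an unadjusted p under 0.05, where 5.01% of all genes tested were higher and 3.06% were lower at that level. The groups did not overlap for B2m and H2-D1, 2 of these 3, with 7.88% of tested genes higher and 16.1% lower without overlap in the whole table. The median log2 fold change was 3.58 over the 3, and -0.52 over all genes tested, of which 32.6% were higher with KCL-HO-1i. B2m passed the filter on low counts through the KCL-HO-1i libraries alone. H2-K1 reached the 3 libraries that the filter needs only with KCL-HO-1i replicates 2 and 3, and H2-T23 did not pass it. These counts therefore describe the tested members and are no support for the class. DESeq2 without a filter called 1 member (B2m), where it called 1.41% of the 11612 genes to which it gave an adjusted p. Limma voom with sample quality weights called 3 members (B2m, H2-D1 and H2-K1, adjusted p = 0.00505, 0.0105 and 0.0267), where it called 4.12% of the genes tested.

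The class II genes had few counts in any library. H2-Ab1, which encodes the beta chain of I-A (chromosome 17, GRCm38, 34257689 to 34269419, plus strand), had 19, 0 and 0 counts with vehicle against 19, 1 and 41 with KCL-HO-1i. In CPM these are 106, 0 and 0 against 87.6, 4.0 and 147. The groups overlapped through vehicle replicate 1, which lay above 2 of the KCL-HO-1i libraries. The log2 fold change was 1.19 (SE 1.78, adjusted p = 0.934 by edgeR; exact permutation p = 0.5). It was 0.39 without KCL-HO-1i replicate 3 and 7.43 without vehicle replicate 1, where the vehicle libraries are at 0 and the fitted value depends on the prior count, and it turned to -0.69 with scaling to the general macrophage genes.

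H2-Aa encodes the alpha chain that pairs with H2-Ab1 (chromosome 17, GRCm38, 34282744 to 34287823, minus strand). Its CPM were 11.2, 0 and 0 with vehicle against 18.4, 55.9 and 39.5 with KCL-HO-1i. The groups did not overlap (exact permutation p = 0.1), but the gene missed the filter on low counts and has no value in edgeR. Its vehicle counts summed to 2, under the floor of 3 counts. KCL-HO-1i replicate 2 had the highest H2-Aa level and 1 count of H2-Ab1, whereas both chains had vehicle counts in replicate 1 alone.

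Cd74, the invariant chain, is the most abundant class II transcript in many antigen-presenting cells (chromosome 18, GRCm38, 60803848 to 60812652, plus strand). It had 7, 0 and 2 counts with vehicle against 39, 15 and 7 with KCL-HO-1i. The corresponding CPM were 39.1, 0 and 6.83 against 180, 59.9 and 25.1, with overlap between vehicle replicate 1 and KCL-HO-1i replicate 3 (exact permutation p = 0.2). It missed the filter on low counts. DESeq2, which had no filter here, put it at 2.61 on the log2 scale (adjusted p = 0.573).

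H2-Eb1, the beta chain of I-E, and both chains of the H2-DM chaperone completed the class. H2-Eb1 (chromosome 17, GRCm38, 34305867 to 34316674, plus strand) had 3 counts in vehicle replicate 2, 9 counts in KCL-HO-1i replicate 2 and 0 elsewhere (exact permutation p = 1). H2-DMa (chromosome 17, GRCm38, 34119541 to 34139101, plus strand) had 5, 14 and 15 counts with vehicle against 0, 15 and 0 with KCL-HO-1i, or 27.9, 72.4 and 51.2 CPM against 0, 59.9 and 0 CPM. It was the one tested member with a negative log2 fold change, -1.31 (SE 1.71, adjusted p = 0.931 by edgeR; exact permutation p = 0.3), and KCL-HO-1i replicate 2 lay within the vehicle range. H2-DMb1 (chromosome 17, GRCm38, 34153072 to 34160230, plus strand) had 6, 0 and 1 counts with vehicle and 0 in all KCL-HO-1i libraries (exact permutation p = 0.4). It shares 37.6% of its 31-base stretches with H2-DMb2, so its counts are uncertain. Of the 6 class II members 2 were tested, H2-Ab1 and H2-DMa, and neither passed an unadjusted p of 0.05 in edgeR or had groups without overlap. Among all genes tested, 5.01% were higher and 3.06% lower at that level, and 7.88% were higher and 16.1% lower without overlap.

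Set against the receptor genes, most class II values were low. In each library the 95th percentile of counts per kb of transcript over 1474 receptor genes was 8.76, 9.68 and 12.4 with vehicle and 9.70, 7.49 and 11.4 after KCL-HO-1i. B2m and H2-D1 exceeded it in all 3 KCL-HO-1i libraries, at 185, 270 and 307 and at 50.9, 140 and 183 counts per kb. Among the vehicle libraries, B2m, H2-D1, H2-K1 and H2-Ab1 exceeded it in replicate 1, no member did in replicate 2, and H2-D1 alone did in replicate 3 (16.2 counts per kb). H2-DMa stayed under it with vehicle, at 3.02, 8.44 and 9.05 counts per kb, and was above it in KCL-HO-1i replicate 2 at 9.05. Of the class II genes with KCL-HO-1i, Cd74 and H2-Ab1 exceeded it in replicate 1, Cd74, H2-Aa and H2-DMa in replicate 2 and H2-Ab1 in replicate 3. Each KCL-HO-1i library thus had a different set of class II genes above that level.

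Per kb of transcript, the order of the levels also differed between the classes. With KCL-HO-1i, B2m stood first at 1011 ± 138 CPM per kb (SD, n = 3), and its range did not overlap that of H2-D1 at 484 ± 222 CPM per kb. H2-K1 (201), H2-Ab1 (65.6), Cd74 (62.6), H2-Aa (33.6), H2-DMa (12.0) and H2-Eb1 (7.18 CPM per kb) followed, and each of these overlapped its neighbors in the order. H2-T23 and H2-DMb1 were at 0. With vehicle H2-D1 stood first at 79.4 ± 58.6 CPM per kb, and no neighbors in the order were separated beyond their spread.

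Summed over its members in CPM, class I had the larger difference between the groups. With libraries scaled to the macrophage genes, the log2 differences were 0.84 for class I and -1.69 for class II. The larger in size was then that of class II. Class I still stood above class II, because scaling shifts both sums alike. Log2 differences of sums are taken between group means of log2 values. Class I held 84, 15 and 34 counts with vehicle against 272, 655 and 771 with KCL-HO-1i, while class II held 39, 17 and 18 against 62, 54 and 59. The class I sum was 221 ± 216 CPM (SD, n = 3) against 2212 ± 834 CPM (SD, n = 3), a ratio of means of 10.01, and the groups did not overlap. The class II sum was 122 ± 83.8 CPM (SD, n = 3) against 238 ± 41.6 CPM (SD, n = 3), a ratio of 1.94, and vehicle replicate 1 (218 CPM) lay above KCL-HO-1i replicates 2 and 3 (216 and 212 CPM). Without H2-DMa the class II sum was 190, 15.5 and 10.2 CPM against 286, 156 and 212 CPM, a ratio of 3.03, still with overlap.

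**Figure D3:**
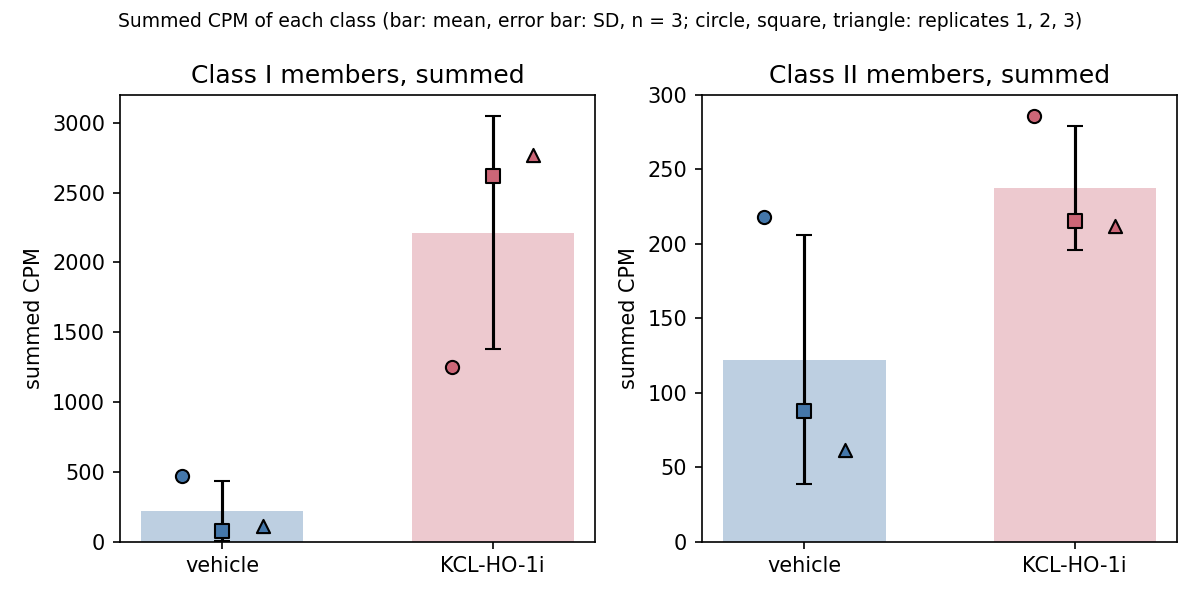
Summed CPM of the class I genes (left) and the class II genes (right), with bars for group means, error bars for the SD (n = 3) and circles, squares and triangles for replicates 1, 2 and 3. The class I sums with KCL-HO-1i (1253 to 2767 CPM) lie above all vehicle sums, and the class II sums overlap between vehicle replicate 1 and KCL-HO-1i replicates 2 and 3, on an axis with a smaller range.

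The share of MHC counts that fell on class II does not depend on how libraries are scaled. It was 31.7%, 53.1% and 34.6% with vehicle, with exact 95% Clopper-Pearson intervals of 23.6% to 40.7%, 34.7% to 70.9% and 21.97% to 49.1%. With KCL-HO-1i it was 18.6%, 7.62% and 7.11%, with intervals of 14.5% to 23.2%, 5.77% to 9.82% and 5.45% to 9.07%. The means were 39.8% ± 11.6 (SD, n = 3) and 11.1% ± 6.47 (SD, n = 3), and the groups did not overlap. The intervals cover counting error only, since the reads carry no molecular identifiers.

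The separation rested on single genes. H2-DMa supplied 14 of the 17 class II counts of vehicle replicate 2 and 15 of the 18 of vehicle replicate 3. Without H2-DMa the share was 28.8%, 16.7% and 8.11% with vehicle against 18.6%, 5.62% and 7.11% with KCL-HO-1i, so the groups overlapped. Without B2m it was 35.8%, 53.1% and 34.6% against 35.4%, 11.3% and 10.4%, which overlapped through KCL-HO-1i replicate 1. Without Cd74 the groups stayed apart, with 27.6%, 53.1% and 32.0% against 7.80%, 5.62% and 6.32%.

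**Figure D4:**
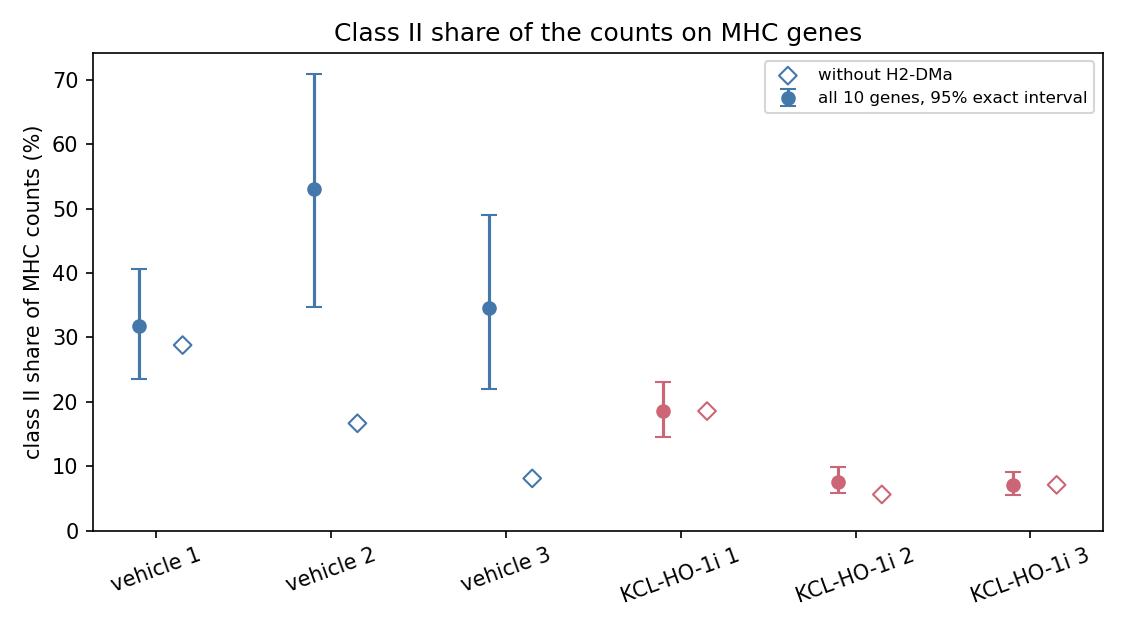
Share of the counts on the 10 MHC genes that fell on class II genes in each library (percent), with 95% exact binomial intervals as bars for all 10 genes and open diamonds for the same share without H2-DMa. Filled points are 31.7% to 53.1% with vehicle and 7.11% to 18.6% with KCL-HO-1i, while the open diamonds of the groups overlap.

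Measured against other macrophage transcripts, class I was higher in every KCL-HO-1i library and class II was lower, the former through B2m and the latter through H2-DMa. Per 1000 counts on the 15 general macrophage genes, class I held 328, 149 and 222 counts with vehicle against 367, 386 and 442 with KCL-HO-1i, without overlap. Without B2m, the class I values were 273, 149 and 222 against 152, 249 and 291 and overlapped. Class II held 152, 168 and 118 counts with vehicle against 83.7, 31.8 and 33.8 with KCL-HO-1i, again without overlap, but without H2-DMa the values overlapped at 133, 29.7 and 19.6 against 83.7, 23 and 33.8. With vehicle, H2-DMa lay under the receptor genes' 95th percentile per kb. The macrophage counts behind the ratios were 256, 101 and 153 with vehicle against 741, 1696 and 1745 with KCL-HO-1i. Per kb of transcript, the 15 genes as a whole lay under that percentile in every vehicle library (8.76, 9.68 and 12.4 counts per kb). They lay above it in every KCL-HO-1i library. In vehicle replicate 3 they did not exceed the median receptor gene (4.09 counts per kb). Background may therefore form part of the vehicle counts on the macrophage genes, and its part was not tested. With libraries scaled to these genes, the edgeR log2 fold change was 3.03 for B2m (adjusted p = 0.0662), 1.26 for H2-K1, -0.12 for H2-D1 and -0.69 for H2-Ab1, so the direction of H2-D1 and H2-Ab1 turned. H2-DMa was then called lower at -4.70 (adjusted p = 0.0299), on a scale where 53.8% of all genes tested were called lower and their median was -3.51.

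Within class I, the light chain stood higher against the heavy chains with KCL-HO-1i. B2m had 20, 0 and 0 counts per 100 counts on H2-D1 and H2-K1 with vehicle against 141, 54.8 and 52.1 with KCL-HO-1i. The groups did not overlap, and the ratio of KCL-HO-1i replicate 1 was more than 2 times that of the other KCL-HO-1i libraries, with 113 heavy chain counts against 423 and 507. Relative to the macrophage genes, B2m had 54.7, 0 and 0 counts per 1000 with vehicle against 215, 137 and 151 with KCL-HO-1i.

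The genes that prepare and load class I peptides were mostly too low to test. Of 14 listed genes 4 passed the filter on low counts, in which a gene with counts in only 1 group can pass through that group, with 3 higher and 1 lower with KCL-HO-1i and a median log2 fold change of 1.31 (-0.52 over all genes tested). Of the 4, 2 were higher at an unadjusted p under 0.05 (5.01% of all genes tested were) and 0 were lower, and 0 passed the adjusted threshold. Canx, the calnexin chaperone that folds new heavy chains, had 37, 11 and 32 counts with vehicle against 81, 137 and 236 with KCL-HO-1i, without overlap, and a log2 fold change of 2.24 (SE 0.81, adjusted p = 0.442 by edgeR). Nlrc5, the class I transactivator, had 8, 36 and 8 against 12, 3 and 28 counts, with overlapping groups and a log2 fold change of -0.61 (SE 1.20). Pdia3, a member of the loading complex, had 7, 8 and 0 against 0, 27 and 60 counts. Psme2, a proteasome activator subunit named here after its values were seen, had 0, 0 and 1 against 9, 25 and 21 counts. Tap1, a subunit of the peptide transporter and likewise chosen after its values were seen, had 47 counts in KCL-HO-1i replicate 1 and 0 elsewhere.

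None of the other class I genes was tested. Of 20 listed, 19 were in the table and 6 were at 0 in every library (H2-Q1, H2-Q4, H2-Q7, H2-T22, H2-Bl and Mr1). The 19 summed to 33, 23 and 57 counts with vehicle against 0, 27 and 59 with KCL-HO-1i. The most abundant, H2-Q6, had 9, 6 and 23 counts against 0, 4 and 3, the opposite order to H2-D1 and B2m, but these genes are near copies of one another and the counts are uncertain. H2-T24 had 5, 0 and 6 counts against 0, 3 and 14, and H2-M3, which presents formylated peptides, had 2, 1 and 0 against 0, 0 and 23.

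Of 17 genes listed for the class II pathway 16 were in the table and 9 were tested, with 6 higher, 3 lower and a median log2 fold change of 1.99, against -0.52 over all genes tested. Of the 9, 4 were higher at an unadjusted p under 0.05 (5.01% of all genes tested were) and 0 were lower. These 4 were lysosomal proteases, and in each the groups did not overlap, where 7.88% of all genes tested were higher without overlap. Ctss, Lgmn and Ctsd reached the 3 libraries that the filter on low counts needs only with the KCL-HO-1i libraries, as B2m did, so this count describes the tested genes and is no support for the list. A further protease, Ctsl, did not pass at that level (unadjusted p = 0.0606, overlapping groups). Ctsb (cathepsin B) had 183, 33 and 72 counts with vehicle against 528, 1138 and 1418 with KCL-HO-1i, and a log2 fold change of 3.07 (SE 1.00, adjusted p = 0.349 by edgeR). Lgmn, an asparaginyl endopeptidase, had 39, 12 and 4 against 106, 317 and 259 counts, and a log2 fold change of 3.20 (SE 1.03, adjusted p = 0.344). Ctss (cathepsin S, which trims the invariant chain) had 33, 0 and 1 against 140, 192 and 221 counts, and a log2 fold change of 3.57 (SE 1.41, adjusted p = 0.515). Ctsd (cathepsin D) was the one gene of the list that DESeq2 called (log2 fold change 3.43, adjusted p = 0.0424). These proteases serve the lysosome in general and are not particular to class II.

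No listed regulator of class II transcription was higher in all KCL-HO-1i libraries than in the vehicle libraries. Ciita, described here after its values were seen, had 28, 27 and 38 counts with vehicle against 0, 31 and 0 with KCL-HO-1i. In CPM it was 156, 140 and 130 against 0, 124 and 0, lower without overlap as were 16.1% of all genes tested, but the log2 fold change of -1.77 (SE 1.52, adjusted p = 0.886 by edgeR) was near its standard error. Per kb of its 6007-base transcript, Ciita lay under the receptor genes' 95th percentile with vehicle (8.76, 9.68 and 12.4 counts per kb). Its vehicle counts are therefore not told apart from background. The subunits of the X box complex Rfx5, Rfxap and Rfxank had 0 to 41, 10 to 16 and 0 to 23 counts with vehicle and 5 to 12, 1 to 14 and 0 counts with KCL-HO-1i. H2-Oa and H2-Ea-ps were at 0 in every library, and H2-Eb2 had 6, 13 and 12 counts against 0, 12 and 0. H2-DMa, Ciita and H2-Eb2 had counts in all vehicle libraries and in KCL-HO-1i replicate 2 but in neither of the others, as did 1880 genes of the table (8.61%). KCL-HO-1i replicate 2 was the KCL-HO-1i library with the most genes detected (15148, against 7584 and 10781).

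**Figure D5:**
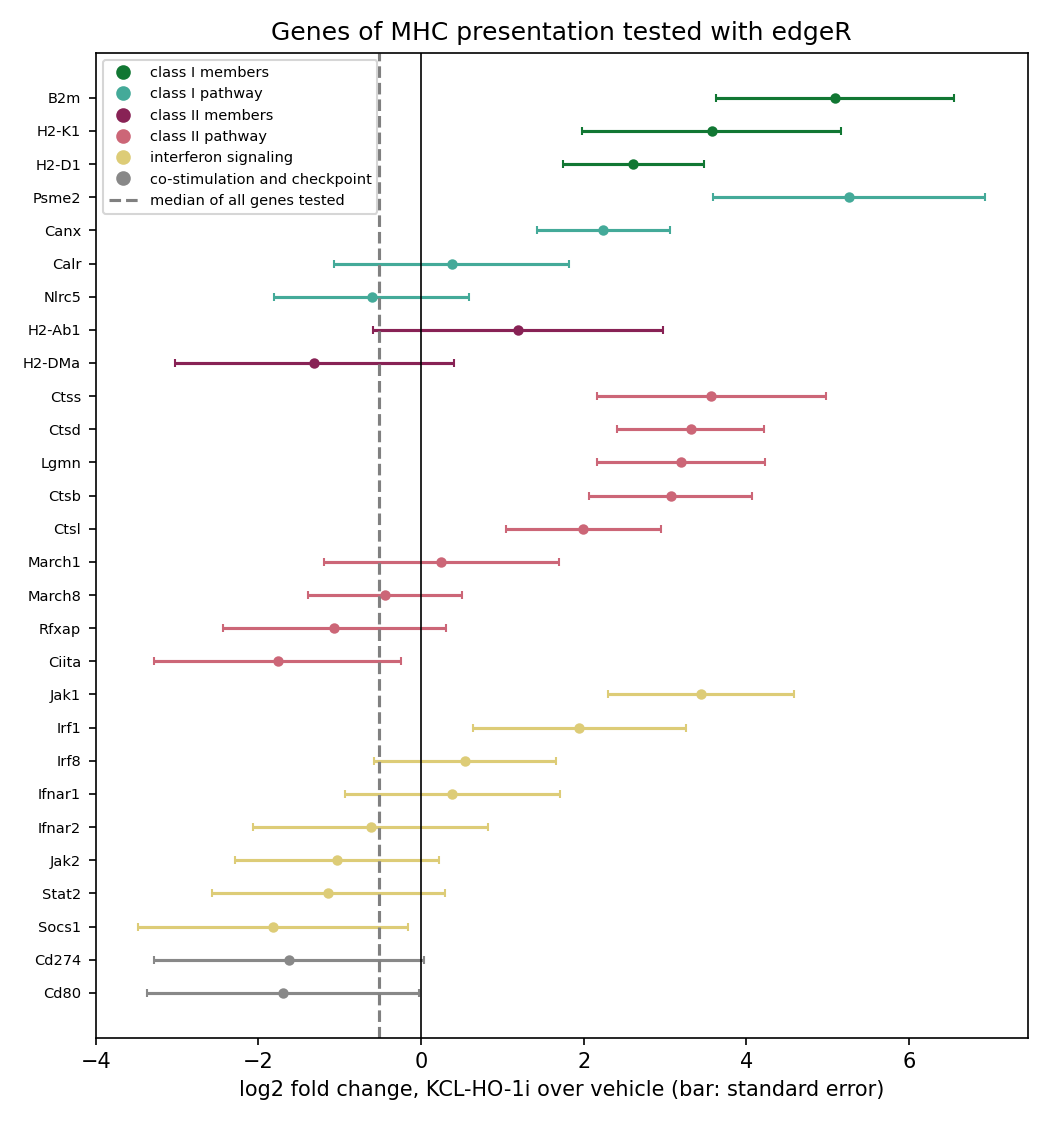
Log2 fold change with standard error for each tested gene of the MHC members and of 4 pathway lists, from edgeR, with a solid line at 0 and a dashed line at the median of all genes tested (-0.52). The class I members, Canx, Psme2 and the lysosomal proteases lie to the right, while H2-Ab1, H2-DMa, Ciita, Nlrc5 and the co-stimulatory genes lie within about 2 standard errors of 0.

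Interferon signaling genes showed no common direction. Of 21 listed genes 8 were tested, with 4 higher and 4 lower and a median log2 fold change of -0.12. Jak1, the kinase shared by the interferon receptors, had 6, 1 and 7 counts with vehicle against 8, 69 and 107 with KCL-HO-1i (log2 fold change 3.44, SE 1.14, unadjusted p = 0.0117, adjusted p = 0.364 by edgeR), and it was the 1 gene of the 8 at an unadjusted p under 0.05, where 5.01% of all genes tested were higher and 3.06% lower. Jak1 passed the filter on low counts through the KCL-HO-1i libraries alone. Irf1, an interferon-induced transcription factor, had 6, 0 and 19 against 30, 54 and 10 counts, and Ifnar1, a chain of the type I receptor, had 22, 0 and 18 against 9, 31 and 21, both with overlap. Ifngr1 was listed at 0 in every library, although macrophages carry this receptor, and its 0 is not read as absence.

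Co-stimulatory and checkpoint genes, which accompany antigen presentation, were low throughout. Of 8 listed genes 2 were tested, both with negative log2 fold changes that did not pass. Cd274, which encodes PD-L1, had 13, 20 and 11 counts with vehicle against 0, 17 and 0 with KCL-HO-1i (-1.62, SE 1.66, adjusted p = 0.917 by edgeR), and Cd80 had 7, 19 and 18 against 0, 15 and 0 (-1.70, SE 1.68, adjusted p = 0.917 by edgeR). Cd86 had 6, 0 and 6 against 0, 17 and 29 counts.

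Other cell types of the tumor can carry MHC transcripts, although the gate for live CD45+F4/80+CD206+LYVE-1+ cells is meant to remove them. The 10 dendritic cell markers summed to 319, 274 and 533 CPM with vehicle against 235, 284 and 258 with KCL-HO-1i, with Zbtb46 the most abundant (36, 34 and 54 against 0, 15 and 30 counts) and Flt3 and Itgax at 0 to 4 counts in every library. Cd209a, the next most abundant, had 7, 1 and 7 against 25, 37 and 5 counts, with overlapping groups. Of the 10 dendritic cell markers, 2 were tested and 0 passed. Of the B cell markers, Pax5 was the most abundant (30, 32 and 48 against 15, 40 and 51 counts), Ms4a1 had 8, 5 and 10 against 10, 12 and 1 counts, and Cd79a was at 0 in 4 libraries. The 7 T cell markers summed to 50.3, 186 and 126 CPM against 111, 104 and 57.4 CPM, with Cd8a the most abundant. Neither the dendritic cell nor the T cell sum was higher in all KCL-HO-1i libraries than in the vehicle libraries, nor was Pax5, Ms4a1 or Cd79a. The 10 epithelial and tumor cell markers, none of them tested, summed to 173, 140 and 157 CPM against 521, 152 and 205 CPM, and they went both ways. The most abundant, the milk protein gene Csn2, had 37 and 20 counts in KCL-HO-1i replicates 1 and 3 and 0 elsewhere. In contrast, Cdh1 had 5, 12 and 13 against 0, 3 and 0 counts, lower without overlap, and Cldn4 had 5, 9 and 12 against 0, 8 and 1 counts. The 5 erythroid markers summed to 168 counts in KCL-HO-1i replicate 2 and to at most 20 in any other library. The 8 endothelial cell markers (80, 52 and 142 against 14, 68 and 49 counts), the 7 fibroblast markers (56, 57 and 90 against 15, 24 and 51 counts) and the 5 neutrophil markers (36, 10 and 31 against 36, 26 and 57 counts) had counts as well. Per kb of transcript, the endothelial and fibroblast lists as wholes did not exceed the median receptor gene with vehicle (2.11, 1.75 and 4.09 counts per kb). Their vehicle counts are therefore not read as detection of such cells. The vehicle counts of the endothelial list exceeded those of the 10 MHC genes in vehicle replicates 2 and 3, and the fibroblast sum was 313, 295 and 307 CPM with vehicle against 69.1, 95.9 and 183 CPM with KCL-HO-1i, lower without overlap. Their part in the MHC levels was not tested.

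The genes closest to each class in pattern were described by Pearson's r of log2 CPM over the 6 libraries. For the class I sum they were Ctsb (0.999), Gpx4 (0.997), Itm2b (0.997), S100a1 (0.996) and Ctsc (0.996). For the class II sum they were Hs3st3a1 (0.995), Clta (0.986), Rpl7 (0.974), Ppib (0.973) and Rpl41 (0.971). The median r over all tested genes outside the members was -0.32 for class I and -0.31 for class II. The 6 points share library depth and make-up, and vehicle replicate 1 had more counts than the other vehicle libraries for each of these genes but Hs3st3a1, which had 16 counts in vehicle replicate 3 and 15 in replicate 1.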

How the data were processed

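RNA of sorted TAMs from 3 vehicle and 3 KCL-HO-1i mice was sequenced from directional libraries. The authors checked reads with FastQC 0.11.9, aligned them with STAR 2.7.9a to mm10 (versions and build per the submitters' processing notes), estimated transcripts with Salmon 1.9.0 and summed them to genes with tximport. The table deposited by the authors holds these estimated counts, 1 column per mouse. The study's methods call them TPM, but the totals differ between libraries, so they were treated as estimated counts and rounded. The annotation used is not given in the sources used here.

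After filterByExpr (count of at least 10, total of at least 15) and TMM scaling, genes went through the quasi-likelihood test in edgeR 4.0.16 (R 4.3.3) with no covariate. A call needed an adjusted p-value under 0.05 and a log2 fold change over 0.6 in size. The standard error is the log2 fold change divided by the square root of F. CPM use the counts on the tested genes and the TMM factors. DESeq2 1.42.0, the study's tool, and limma 3.58.1 were alternatives, with other scalings, filters, thinning, a replicate block and each library left out. The log2 CPM of the likeness measure used a prior count of 2. Positions and transcript lengths come from GENCODE M21 (GRCm38). The fits were tested on simulated data.

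The members, lists and tests were chosen with earlier results of these data known. The genes named are the members, the 3 most abundant genes of each pathway list and any gene called, the sort markers, Hmox1 and the 5 genes closest to each class sum. Every other gene of the lists was named after its values were seen, to describe a list, a marker of a cell type or a gene at 0. Replicate libraries differed by more than sampling noise (chi-square per degree of freedom 6.64 to 37.3). Apart from 1 mouse per library, nothing separates technical from animal spread. The receptor percentile, the sums without H2-DMa and the macrophage-relative class I sum without B2m were chosen after seeing the data. The sum over the B cell markers is not reported here. Columns of no sample numbered 0.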

Additional observations from a re-analysis of the deposited data

How the results depend on the processing

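No member and no gene was called by edgeR in the design reported (586 genes had an unadjusted p under 0.05). At the depth of these libraries, 4 of the 6 class II genes and 1 of the 4 class I genes had too few counts to be tested. The number of genes called was 164 with DESeq2 without a filter, 299 with limma voom, 3924 with libraries scaled to the general macrophage genes (13 higher and 3911 lower), 82 with no filter on low counts and 67 among genes with at least 10 counts in every library, and 0 to 74 when 1 library was left out, with 74 reached without vehicle replicate 1. The number of members called in the same order was 1, 3, 1, 1 and 1, and 0 to 1 when 1 library was left out, with B2m called without vehicle replicate 1. RLE, library totals, thinning and leaving out mitochondrial genes called 0 genes. Scaling to the macrophage genes reversed H2-D1 (log2 fold change -0.12) and H2-Ab1 (-0.69), moved the log2 difference of the class I sum from 3.69 to 0.84 and reversed that of the class II sum from 1.16 to -1.69, with the all-gene median shifted from -0.52 to -3.51. These log2 differences are taken between group means of log2 values, so they are not the logs of the ratios of means given above. Leaving out H2-DMa, chosen after seeing the data, moved the log2 difference of the class II sum to 2.76, the class II share difference from -28.7 to -7.43 percentage points (-5.31 also without H2-DMb1) and the log2 difference of class II per 1000 macrophage counts from -1.69 to -0.0833. Leaving out B2m, likewise chosen after seeing the data, moved that of class I per 1000 macrophage counts from 0.84 to 0.0974. With 1 library left out, the log2 fold change was 4.66 to 10.86 for B2m, 3.09 to 9.48 for H2-K1 and 0.39 to 7.43 for H2-Ab1. The highest of each came without vehicle replicate 1, where the other vehicle libraries are at 0, and these 3 fitted values depend on the prior count. For the other results the ranges were 2.48 to 3.67 for H2-D1, -1.34 to -0.46 for H2-DMa, 3.16 to 4.46 and 0.77 to 1.68 for the log2 differences of the class I and class II sums, -32.8 to -22.1 percentage points for the class II share, and 0.56 to 1.13 and -2.14 to -1.44 for class I and class II per 1000 macrophage counts. The H2-DMa range lacks the setting without KCL-HO-1i replicate 2, where H2-DMa was not tested. That was the only KCL-HO-1i library with H2-DMa counts. The replicate numbers belong to different mice, and same-numbered libraries did not deviate together (r = -0.00433, 0.0516 and -0.0344). With the replicate number as a block, 0 genes and 0 members were called, and B2m had a log2 fold change of 6.98 (adjusted p = 0.310 by edgeR). Unless a cause follows from how an alternative is built, the cause of a change was not tested.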
